A study of Caenorhabditis elegans with 12 samples.

Results

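The comparison described here set *C. elegans* larvae whose only intended source of *raga-1* was neuronal ('rescue') against wild type ('WT') larvae. It used 8 of the 12 samples of an RNA-Seq experiment, 4 of rescue and 4 of WT, chosen by their genotype labels, and it covered all genes. The deposited table held 21882 genes, of which 15728 had enough counts to be tested. Rescue larvae carried the *raga-1(ok386)* deletion on chromosome II and the extrachromosomal array *wbmEx238*, in which the pan-neuronal *rab-3* promoter drives a tagged *raga-1* cDNA with an *SL2* mCherry marker and the *unc-54* 3' end. The mutant ('mutant', 4 samples) carried the same *raga-1(ok386)* deletion without an array and is given beside the other groups where it shows whether a difference from WT was also present without neuronal *raga-1*. WT was the N2 strain, with neither the deletion nor the array. All 3 groups were hermaphrodite L4 larvae fed HT115 bacteria that carried the empty RNAi vector L4440, at about 1000 animals per sample and an independent timed egg lay for each sample.

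Several features limit rescue as a model of neuron-only *raga-1*. The array is a multicopy transgene in 1 line, it was first injected into N2 and then crossed into the mutant, and the *rab-3* promoter is described by the study as leaky in the intestine, most of all in adults. Rescue larvae were first transferred by picking, under fluorescence, to new plates, whereas mutant and WT larvae were washed straight off their plates. In every comparison with rescue, handling and strain therefore cannot be told apart. The study also reports that neuronal *raga-1* from a single-copy transgene left the slow development and small body of the mutant uncorrected. Differences in growth rate or in exact stage between rescue and WT larvae therefore cannot be told apart from other effects of genotype. The collection days were also unbalanced: counted from the first day, rescue and mutant samples were taken on days 1, 2, 4 and 6 and WT samples on days 2, 4, 6 and 8.

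RAGA-1 is the *C. elegans* ortholog of the mammalian RagA GTPase, which brings the TORC1 kinase complex to the lysosome when amino acids are present. Active TORC1 is known for promoting ribosome production and protein synthesis and for restraining autophagy, and lowering its activity slows growth and lengthens life in worms. The comparison addresses which parts of the transcriptome still differ from WT, or newly differ from it, once *raga-1* is returned to neurons while the remaining tissues keep the deletion.

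The targeted gene was measured first. *raga-1* was at 891, 805, 874 and 857 CPM (read counts relative to library size, after TMM scaling) in the rescue samples and 1.42 to 1.76 CPM in the mutant, against 70.2, 61.8, 66.9 and 66.1 CPM in WT, so that every rescue sample lay far above every WT sample in whole-worm RNA. *rab-3*, whose promoter drives the array, averaged 16.04 CPM in rescue and 12.77 CPM in WT (log2 fold change 0.33, adjusted p = 0.0177), with no overlap between the samples. The muscle myosin gene *unc-54*, whose 3' end is part of the array, was within 0.06 of WT on the log2 scale (adjusted p = 0.582). Library totals ran from 24724610 to 31410363 estimated counts in rescue and from 14287510 to 26701924 in WT, which makes WT replicate 1 the shallowest library. Of the 10 neuron markers, 2 were called higher in rescue (*egl-3* and *egl-21*), and their summed level was 451 to 479 CPM in rescue, against 334 to 359 CPM in WT. Of the 10 germ line markers 5 were called lower, and of the 11 sperm markers 7 were called lower, whereas the summed oocyte markers overlapped between the groups (1835 to 2598 CPM in rescue and 932 to 2535 CPM in WT). Of the 8 body wall muscle markers 1 was called higher, as was 1 of the 6 pharynx markers, and 0 intestine or hypodermis markers were called. Over all genes tested, 10.2% were called higher and 13.5% lower. In RNA from whole larvae, fewer cells of a type and less RNA per cell cannot be told apart. The listed markers of muscle, pharynx, intestine and hypodermis all had counts in every rescue and WT sample. Among the hypodermis markers, *dpy-7* and *wrt-2* were at only 0.178 and 0.535 CPM in WT replicate 2. WT samples lay further apart from each other than rescue samples did: the median distance between pairs on log2 CPM was 44.6 within rescue and 80.1 within WT, and 91.0 between rescue and WT. The distances ran from 48.6 to 117.8 within WT and from 83.2 to 108.2 between rescue and WT, so some WT samples differed more from each other than from any rescue sample. These samples are separate cultures of 1 strain per genotype, so the p-values below measure the spread between such cultures, estimated over all groups together.

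Between rescue and WT, 1602 genes were called higher in rescue (10.2% of those tested) and 2119 were called lower (13.5%), by the quasi-likelihood test of edgeR at an adjusted p under 0.01, with Benjamini-Hochberg adjustment over all 15728 genes. All adjusted p-values below come from this fit. The rises were fewer but larger, with a median log2 fold change of 0.67 and 444 genes at 1 or more, against a median of -0.49 and 153 genes at -1 or less among the falls. Genes that rose were also expressed at a lower level, with a median over genes of 11.7 CPM, against 33.7 CPM for genes that fell and 14.4 CPM for all genes tested. The CPM of the groups did not overlap for 3639 of the 3721 genes called, and for 5415 (34.4%) of all genes tested. Of the called genes, 3556 are annotated as protein coding and 159 as pseudogenes. The balance of rises and falls depended on the scaling of the libraries: 43.1% of the calls were rises with TMM, whereas 65.1% were with library size alone, where the median over all genes tested was 0.14 rather than 0.04. The number of calls depended on the samples and blocks in the fit. With the 9 samples of days 2, 4 and 6 from all groups and no block, the same test called 693 genes higher and 1097 lower. With only the rescue and WT samples of those days and the day as a block, it called 0 genes. The smallest adjusted p of the test in that fit, which has fewer samples, was 0.0102, just over the threshold. In this smaller fit, 2246 had an unadjusted p under 0.05 in the direction of rescue above WT and 2634 in the other direction. Of the genes called over all samples without a block, 3709 were tested in the smaller fit, and 3709 had the same direction. All samples of the smaller fit were among those that gave the calls, so this count is not separate support. Over all samples, a block for collection day gave 41.2% rises among its calls.

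**Figure D1:**
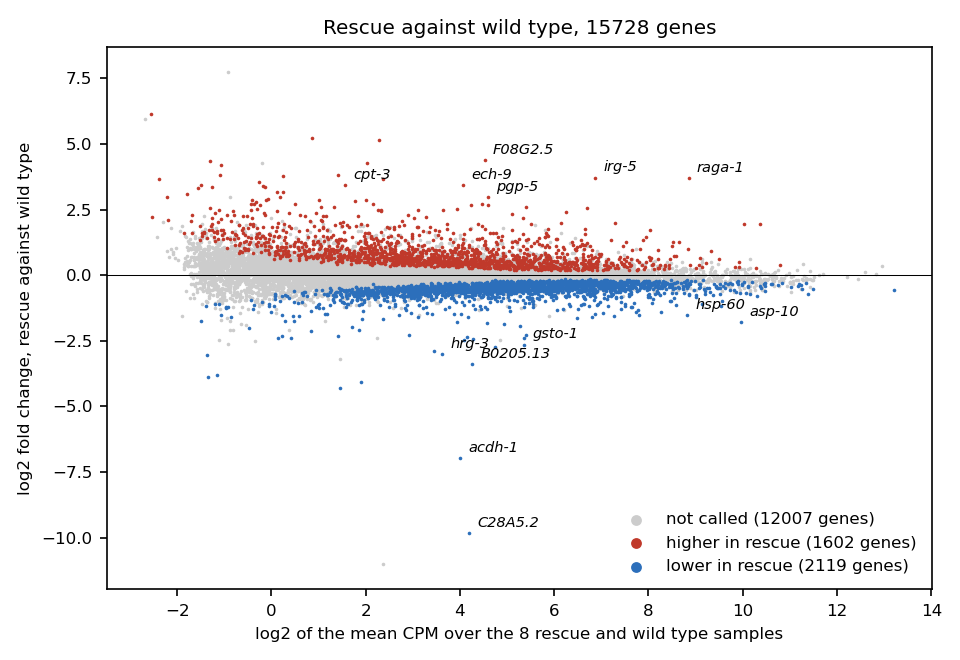
Log2 fold change of rescue against wild type (vertical axis) by mean level over the 8 samples (horizontal axis, log2 CPM), with 1 point per gene and the 13 labelled genes named in the text. Genes called higher in rescue (1602, red) lie further from 0 and at lower levels than the 2119 called lower (blue), and *C28A5.2* and *acdh-1* stand lowest.

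Beyond *raga-1*, the rises described first are among the 15 largest of called genes with a mean of at least 5 CPM and groups that did not overlap, and genes of lower level can have larger fold changes. *F08G2.5* was at 33.8, 30.2, 47.3 and 64.1 CPM in rescue and 45.8 to 77.7 CPM in the mutant, against 2.17, 2.32, 1.80 and 2.21 CPM in WT, or 4.37 ± 0.28 on the log2 scale, with the standard error (adjusted p = 1.45e-06). The rescue and WT ranges were far apart, and those of rescue and mutant overlapped. *ech-9*, of the enoyl-CoA hydratase family, was at 24.7, 14.2, 37.5 and 47.04 CPM in rescue, against 2.54, 3.79, 1.88 and 3.19 CPM in WT (3.43 ± 0.35, adjusted p = 2.96e-05). Both genes also rose in the mutant, with log2 fold changes of 4.91 and 2.70 against the same WT samples. *pgp-5*, an ABC transporter of the P-glycoprotein family, was at 39.2, 46.4, 46.6 and 39.5 CPM in rescue, against 6.38, 4.23, 4.54 and 6.80 CPM in WT. *swt-6*, of the SWEET sugar transporter family, was at 28.3, 26.6, 34.5 and 40.4 CPM in rescue, against 5.00, 6.33, 4.93 and 4.08 CPM in WT, and its locus overlaps *R10D12.10*. Both transporters had higher values in all 4 rescue samples than in any WT sample, with log2 fold changes of 2.97 and 2.68. The lipase-family gene *lips-14* (2.51, adjusted p = 1.86e-07) and the immune effector gene *T24B8.5* (2.61, adjusted p = 2.33e-05) were also among the 15 largest rises, and *T24B8.5* was at 80.7, 72.3, 63.2 and 74.8 CPM in rescue, against 20.7, 9.04, 11.6 and 6.99 CPM in WT.

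Among the falls, the vitamin B12-sensitive gene *acdh-1*, an acyl-CoA dehydrogenase of the propionate shunt, was one of the largest, and it was also lower in the mutant. *acdh-1* was at 0.245, 0.316, 0.167 and 0.271 CPM in rescue and 0.0567 to 0.203 CPM in the mutant, against 19.7, 12.8, 15.96 and 78.5 CPM in WT (-6.98 ± 0.70 on the log2 scale, adjusted p = 2.73e-05). WT replicate 4 stood far above the other WT samples, and even the lowest WT sample was well above the highest rescue sample, and the log2 fold change without that replicate was -5.99. *nhr-68*, a nuclear hormone receptor known to be needed for *acdh-1* expression, was at 9.88, 9.83, 12.96 and 11.3 CPM in rescue, against 24.4, 21.1, 20.03 and 23.1 CPM in WT, and fell by 1.01 on the log2 scale. *hrg-3*, which encodes a secreted heme carrier of the intestine, was at 2.82, 2.21, 3.98 and 1.81 CPM in rescue, against 18.3, 23.7, 17.3 and 28.1 CPM in WT. The omega-class glutathione transferase *gsto-1* was at 11.2, 14.1, 9.88 and 10.1 CPM in rescue, against 87.8, 63.1, 65.0 and 66.2 CPM in WT. Neither *hrg-3* nor *gsto-1* overlapped between the groups, their log2 fold changes were -3.01 and -2.64, and the mutant values (2.04 to 3.10 CPM and 10.3 to 16.199 CPM) overlapped those of rescue. The beta-tubulin *tbb-6* fell by 2.48 and *B0205.13* by 3.40 on the log2 scale, again with all rescue samples below all WT samples. *sdz-24* and *R03D7.2* fell by 2.45 and 2.89, and both were lower in rescue than in the mutant as well (adjusted p = 0.00837 and 0.00224). *Y54G11A.7* fell by 2.39 on the log2 scale, but its locus overlaps the catalase gene *ctl-2*, and the counting of overlapping genes by strand is not stated, so reads of the pair may not be separated. The same limit holds for other genes named here that overlap an annotated coding gene, among them *hrg-3*, *gsto-1*, *sdz-24*, *flp-3*, *nlp-21*, *iars-2*, *asp-10*, *sams-3*, *akt-1*, *aak-2* and *vit-2*.

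*C28A5.2* (chromosome III, 4434750 to 4439543 in WBcel235) was all but absent in rescue. Rescue libraries held between 0 and 2 counts of it, against 467 to 962 counts in WT libraries, or 33.8 to 42.9 CPM. Taken against a floor of 3 counts per rescue library, which is 0.108 CPM on average and covers counting error only, *C28A5.2* was at least 339.8-fold lower in rescue than in WT and at least 234-fold lower than in the mutant. The mutant, at 23.8 to 26.2 CPM, missed the threshold against WT (log2 fold change -0.54, adjusted p = 0.0119).

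Of the genes for making ribosomes and proteins, most ribosome biogenesis, translation factor and tRNA synthetase genes were lower in rescue than in WT, as were some ribosomal protein genes. Each list is set against the background of 10.2% of genes higher and 13.5% lower and a median log2 fold change of 0.04 over all genes tested. Of 30 ribosome biogenesis genes tested, 25 fell and 0 rose, with a median of -0.41 in rescue and -0.31 in the mutant, each against the same WT samples. Their summed level was 4406, 4661, 4317 and 4219.8 CPM in rescue, against 6519.7, 6149.7, 6400.5 and 6409 CPM in WT, with no overlap. *nol-5*, a core protein of box C/D snoRNPs, was at 359, 381, 349 and 334 CPM in rescue, against 597, 554, 561 and 599 CPM in WT, and *K01G5.5*, the ortholog of dyskerin, was at 338, 357, 316 and 318 CPM in rescue, against 553, 519, 536 and 534 CPM in WT. They fell by 0.70 and 0.69 on the log2 scale (adjusted p = 5.48e-06 and 8.95e-06). Translation factors gave 22 falls and 0 rises among 38 (median -0.28), with *eif-3.F*, a subunit of the eIF3 initiation complex, at 123 ± 4.55 CPM in rescue and 177 ± 6.54 CPM in WT (SD, n = 4 each). Of 33 aminoacyl-tRNA synthetases, 24 fell and 1 rose, and the member with the largest fall was the mitochondrial isoleucyl enzyme *iars-2* at 70.6 ± 4.84 CPM in rescue and 131 ± 8.54 CPM in WT (SD, n = 4 each). Cytosolic ribosomal protein genes moved less: 17 of 81 fell and 0 rose, with a median of -0.22. The paralog *rpl-11.1* was among those that fell, at 918, 903, 842 and 793 CPM in rescue, against 1375, 1524, 1332 and 1404 CPM in WT. The count for cytosolic ribosomal proteins was 7, 8 and 11 without rescue replicates 4, 3 and 2 and 10 without WT replicate 1, 3 or 4, against 30 with DESeq2. Library size alone gave 13 falling tRNA synthetases.

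The proteasome genes fell almost as a whole. Of 33 subunit genes 30 were called lower in rescue, with a median of -0.37 there and -0.37 in the mutant, and no member was above WT. Summed over the subunits, the level was 5384, 5339, 5144 and 5383 CPM in rescue and 5355 to 5502 CPM in the mutant, against 6882, 6940.0, 7034 and 6868 CPM in WT. *pas-1*, an alpha subunit of the 20S core, was at 143, 137, 128 and 134 CPM in rescue, against 198, 195, 197 and 194 CPM in WT, a difference of -0.53 on the log2 scale with a standard error of 0.04.

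Mitochondrial genes fell by list in different measure. Of 66 mitochondrial ribosomal protein genes, 53 fell, 0 rose and the remaining 13 were below WT without passing the test (median -0.39), while library size alone gave 34 falls. *mrps-22*, of the small subunit, was at 55.99 ± 2.99 CPM in rescue and 83.2 ± 3.39 CPM in WT (SD, n = 4 each). Of 34 nuclear genes for the respiratory chain, 18 fell and 0 rose, led by the cytochrome c paralog *cyc-2.2* at 31.6, 29.4, 33.8 and 29.3 CPM in rescue, against 69.0, 59.97, 62.3 and 54.5 CPM in WT, whose locus overlaps *cubn-1*, while library size alone and the 9 samples of the shared days without a block each gave 11 falls. Of the 12 protein genes of the mitochondrial genome, 1 was called lower by edgeR and 3 by DESeq2. Their median was -0.23, and 7 had an unadjusted p under 0.05 and a lower level in rescue, against 0 with a higher level. Of the 10 fission and fusion genes, 0 were called in either direction by edgeR, although 3 had an unadjusted p under 0.05 and a lower level in rescue, and DESeq2 called 2 lower. Among the genes followed as a mitochondrial unfolded protein response, the chaperones *hsp-60* and *hsp-6* and the protease gene *lonp-1* were lower in rescue. *hsp-60* was at 244, 241, 223 and 224 CPM in rescue and 271 to 289 CPM in the mutant, against 613, 684, 701 and 682 CPM in WT (-1.52, adjusted p = 2.65e-08), and *hsp-6* was at 526, 523, 481 and 487 CPM in rescue, against 933, 999, 1052 and 996 CPM in WT (-0.98, adjusted p = 1.45e-06). The fall of *hsp-60* was to well under the level of any WT sample, and rescue also lay below all 4 mutant samples. *lonp-1* had a log2 fold change of -0.57. In the cytosol the constitutive Hsp70 gene *hsp-1* was at 2146, 1929.8, 1811 and 2187 CPM in rescue, against 2846, 3276, 3469 and 3644 CPM in WT, and 4 of 16 heat shock genes fell, against 2 with a block for collection day. In the endoplasmic reticulum, 1 of 17 unfolded protein response genes passed the test, against 5 without rescue replicate 4, and the list had a median of -0.22 in rescue and -0.40 in the mutant.

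**Figure D2:**
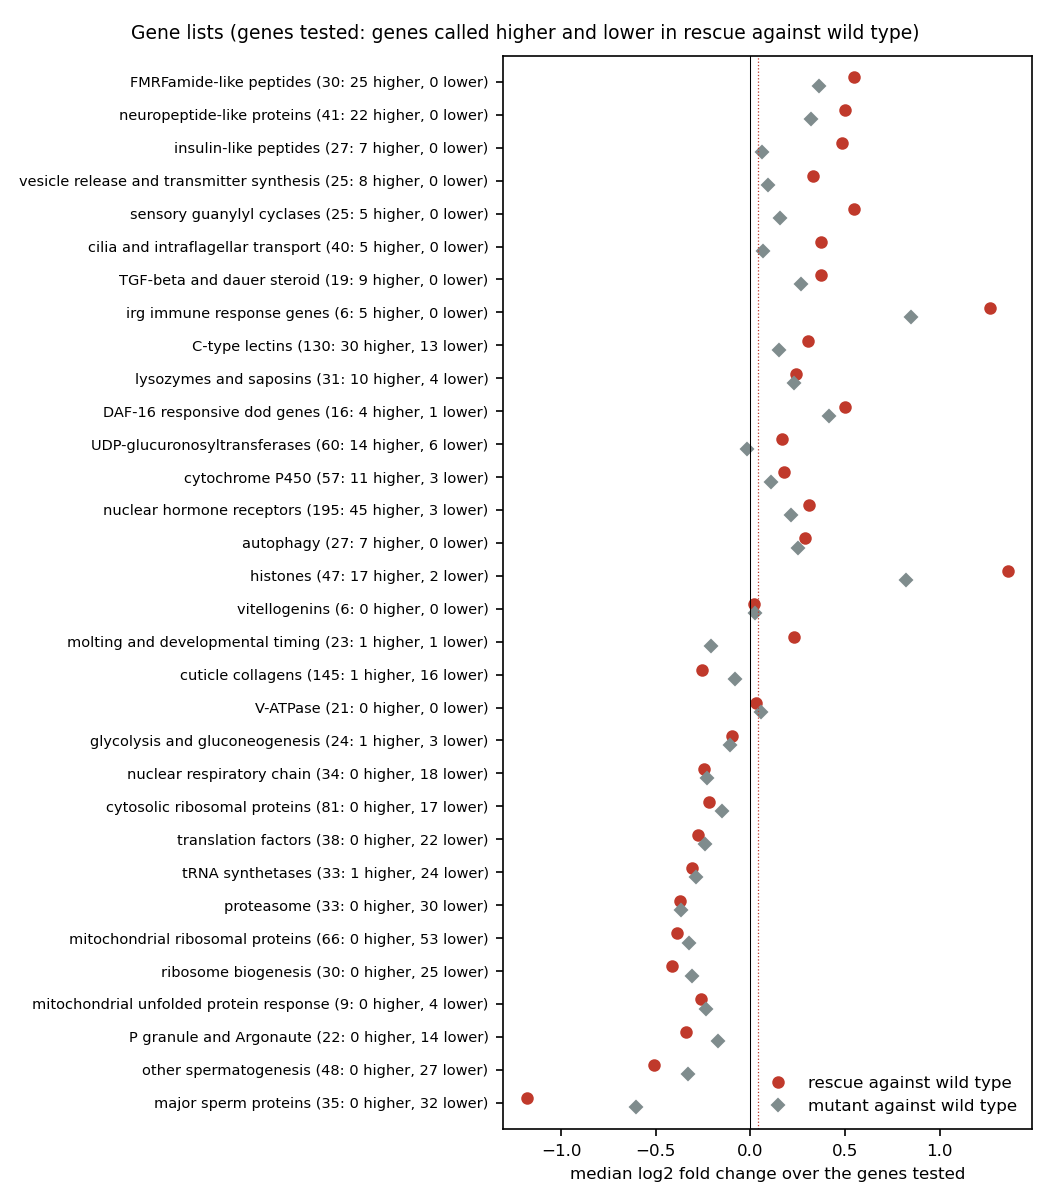
Median log2 fold change over the genes tested (horizontal axis) for 32 gene lists, for rescue against wild type (red circles) and mutant against wild type (grey diamonds), which share the wild type samples. Labels give the genes tested and the numbers called higher and lower in rescue, and the dotted line is the median of all genes tested in rescue (0.04). Protein synthesis, proteasome and sperm lists lie left of 0, and neuropeptide and *irg* lists lie right of it.

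Neuropeptide genes were the neuronal group in which the largest share of members rose. FMRFamide-like peptides act through G protein-coupled receptors and ion channels to set behavioural states, and of 30 tested *flp* genes 25 rose, 0 fell and the remaining 5 were above WT without passing. Their median log2 fold change was 0.55 in rescue and 0.36 in the mutant, and their summed level was 505, 477, 472 and 463 CPM in rescue and 409 to 430.0 CPM in the mutant, against 353, 309.9, 338 and 319 CPM in WT. *flp-3* was at 22.2, 22.6, 18.1 and 21.8 CPM in rescue, against 11.4, 10.8, 11.7 and 11.07 CPM in WT, so the groups were well separated, with the mutant between them at 17.9 to 19.4 CPM. *flp-14* rose by 0.82 ± 0.10 on the log2 scale, with the standard error. Of 41 neuropeptide-like protein genes 22 rose and 0 fell (median 0.50), among them *nlp-21* at 20.1, 20.4, 20.02 and 21.6 CPM in rescue, against 10.4, 10.4, 12.4 and 11.4 CPM in WT, and *nlp-14*, which rose by 0.61. In neither list was a gene called between rescue and mutant. With a block for collection day, 11 *flp* and 8 *nlp* genes rose. Neuron markers were higher in sum, mostly through *egl-3* and *egl-21*, and germ line and sperm markers were lower in the same samples. The part of these markers in the rises was not tested.

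Some genes of the machinery that makes and releases these peptides also rose. *egl-3*, the proprotein convertase that cuts neuropeptide precursors, was at 148, 141.8, 142.2 and 143 CPM in rescue and 112 to 119.3 CPM in the mutant, against 97.3, 80.7, 92.4 and 86.2 CPM in WT (0.69, adjusted p = 7.93e-06). *egl-21*, the carboxypeptidase of the next step, was at 139, 134, 131 and 138 CPM in rescue and 107 to 112 CPM in the mutant, against 96.3, 82.3, 85.3 and 83.1 CPM in WT (0.64, adjusted p = 8.64e-06). For both enzymes the 3 groups were separate, with rescue highest, the mutant between and WT lowest, although neither passed the test between rescue and mutant (adjusted p = 0.0164 and 0.0153). *ida-1*, a dense core vesicle membrane protein, rose by 0.50. Of all 25 genes listed for vesicle release and transmitter synthesis, 8 rose, 0 fell and the median was 0.33. Among receptor genes, 8 of 69 neuropeptide receptors rose and 0 fell, and 7 transmitter receptors rose and 1 fell, so that 11.6% and 6.86% rose beside 10.2% of all genes tested. Sensory neuron genes had positive medians with few calls. Of 25 receptor-type guanylyl cyclases 5 rose (median 0.55 in rescue and 0.16 in the mutant), with *gcy-15* at 6.25, 5.84, 5.76 and 6.11 CPM in rescue, against 2.83, 2.76, 2.70 and 3.38 CPM in WT. Of 40 cilium genes 5 rose (median 0.37), among them *xbx-9* at 6.70, 5.37, 5.66 and 6.23 CPM in rescue, against 4.42, 2.76, 2.86 and 3.23 CPM in WT, and with a block for collection day this count was 0. The same block gave 4 rises for vesicle release and transmitter synthesis, 2 for neuropeptide receptors, 3 for transmitter receptors and 3 for guanylyl cyclases, and library size alone gave 13 for vesicle release and 14 for neuropeptide receptors. Only 79 of 1524 listed chemoreceptor genes had enough counts to be tested, of which 10 rose. Single samples weighed on these short counts: the vesicle count was 5 without rescue replicate 1 or WT replicate 4, the cyclase count 3 without rescue replicate 3 or 4 or WT replicate 4, and the cilium count 2 or 3 without any 1 sample other than mutant replicate 4 and WT replicate 1. Without single samples the neuropeptide receptor count went down to 3 (rescue replicate 1 or WT replicate 4) and the transmitter receptor count to 2 (rescue replicate 4).

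**Figure D3:**
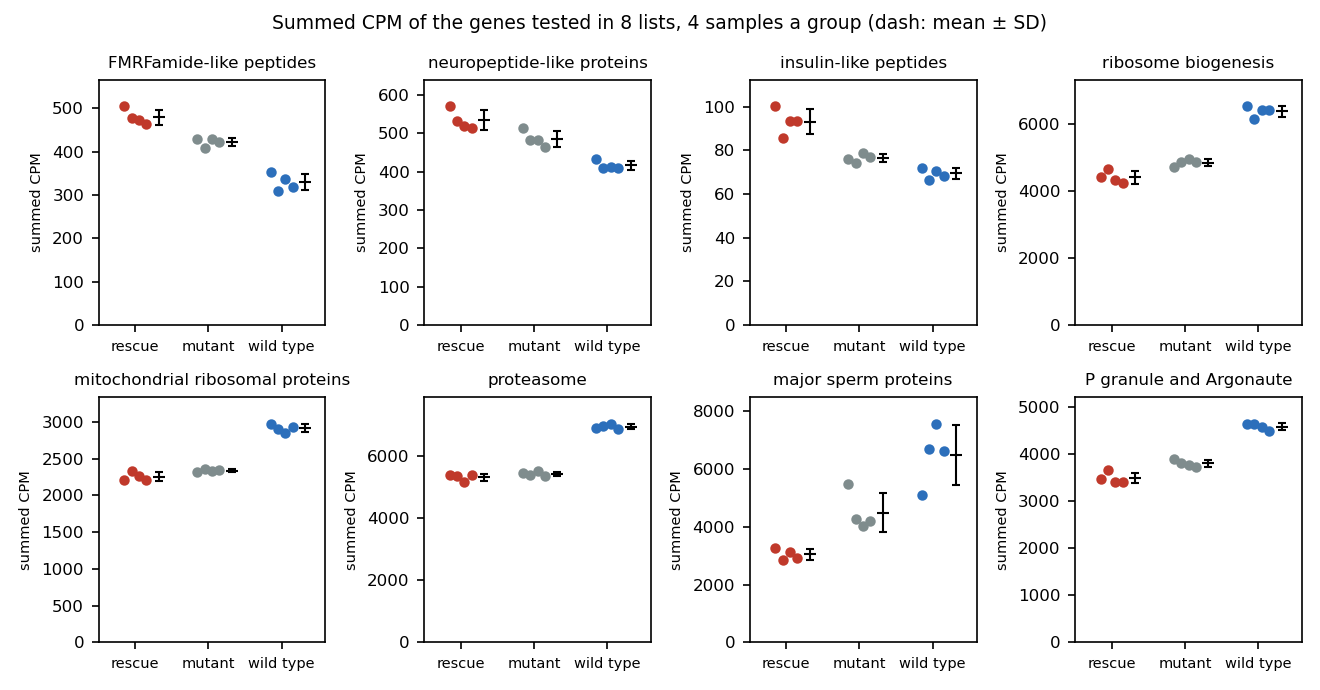
Summed CPM (vertical axis) of the genes tested in 8 lists for each of the 4 rescue (red), mutant (grey) and wild type (blue) samples, with the dash and bar giving mean and SD. Rescue samples lie above all wild type samples for the 3 peptide lists and below all of them for the other 5.

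Hormonal signals that gate growth and dauer entry were partly above WT. Of 27 insulin-like peptide genes tested of 40 listed, 7 rose and 0 fell, and the list median was 0.48 in rescue and 0.06 in the mutant. *ins-7*, an agonist of the insulin receptor DAF-2, was at 6.12, 5.33, 6.395 and 6.23 CPM in rescue, 4.95, 4.25, 2.99 and 4.46 CPM in the mutant and 1.52, 1.92, 2.07 and 2.33 CPM in WT (rescue against WT 1.60, adjusted p = 3.43e-05). For *daf-28* and *ins-6*, agonists that oppose dauer entry, the log2 fold changes against WT were 0.71 and 0.89 in rescue, and -0.33 and -0.24 in the mutant, where neither passed the test (adjusted p = 0.109 and 0.208). Downstream of the peptides, 2 of 11 genes of the receptor pathway rose, the receptor gene *daf-2* (0.37, adjusted p = 0.00254) and the kinase gene *akt-1* (0.24, adjusted p = 0.00246). Values for *akt-1* were 115.1, 111, 118 and 121 CPM in rescue, against 99.2, 100.02, 99.1 and 96.3 CPM in WT, which is a narrow but complete separation. In the TGF-beta and dauer steroid list, 9 of 19 genes rose and 0 fell. *sma-4*, the common Smad of the body size pathway, was at 35.3, 31.98, 31.7 and 32.7 CPM in rescue and 24.1 to 25.95 CPM in the mutant, against 18.6, 16.8, 17.7 and 16.36 CPM in WT (0.93, adjusted p = 1.54e-06). *daf-5*, the Sno/Ski partner in the dauer branch, was at 64.4, 58.9, 59.7 and 56.05 CPM in rescue, against 34.9, 43.97, 33.5 and 33.1 CPM in WT (0.72, adjusted p = 0.000176). With a block for collection day, 2 insulin-like and 5 TGF-beta genes rose, and the calls of *daf-2*, *akt-1*, *daf-28* and *ins-6* were lost (adjusted p = 0.0171, 0.0138, 0.0133 and 0.0102), with log2 fold changes of 0.36, 0.24, 0.71 and 0.77 in that fit.

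Genes that newly differed, in the sense that rescue was past both the mutant and WT in the same direction, were few. Set against the mutant, rescue had 48 genes higher (0.305%) and 12 lower (0.0763%), and 51 of these 60 were also called in the same direction against WT, 40 higher and 11 lower. In the mutant, 15 of the 51 were called higher than WT, 7 lower and 29 were not called. *aex-5*, a proprotein convertase needed for the defecation motor program, was at 48.9, 44.3, 53.0 and 49.1 CPM in rescue, 21.2, 22.2, 23.4 and 21.1 CPM in the mutant and 20.5, 21.7, 18.3 and 21.3 CPM in WT. The mutant and WT ranges of *aex-5* overlapped and every rescue sample lay far above both, with a log2 fold change of 1.26 against WT (adjusted p = 8.42e-07) and 1.15 against the mutant (adjusted p = 1.3e-05). Its locus (chromosome I, 14850052 to 14855827) overlaps *maph-1.1* and *str-245*. *unc-25*, the glutamate decarboxylase that makes GABA, was at 35.97, 34.5, 34.1 and 34.001 CPM in rescue, 22.6, 23.03, 22.5 and 23.8 CPM in the mutant and 22.8, 21.9, 22.3 and 24.4 CPM in WT. *R102.2* was at 66.1, 59.4, 53.9 and 57.6 CPM in rescue, 34.6, 34.9, 35.2 and 35.6 CPM in the mutant and 35.3, 29.4, 36.2 and 35.4 CPM in WT. Both genes separated rescue from the other 8 samples, and their log2 fold changes between mutant and WT were 0.01 and 0.04. *cars-2*, a mitochondrial cysteinyl-tRNA synthetase gene by name that the current Ensembl annotation gives as a pseudogene, was at 12.2, 10.9, 10.5 and 12.62 CPM in rescue, 4.95, 4.42, 4.10 and 4.84 CPM in the mutant and 4.78, 3.07, 4.62 and 4.78 CPM in WT, and it was the 1 tRNA synthetase gene that rose. *clec-160*, a C-type lectin gene, was above WT by 0.31 in rescue and below it by -0.32 in the mutant (adjusted p = 0.00138 and 0.00199). *irg-5*, *ugt-31* and *ugt-26* went the same way in the mutant and further in rescue: for *ugt-26* the values were 47.9, 50.1, 55.4 and 56.2 CPM in rescue, 28.6, 31.97, 31.7 and 33.4 CPM in the mutant and 23.1, 21.3, 21.4 and 21.9 CPM in WT. The gene *tag-10* alone lay between the groups, with a log2 fold change of -1.08 in rescue and -1.72 in the mutant against WT, and its locus overlaps *phdh-1*. The number past both groups was 254 with DESeq2, 7 with a block for collection day, 126 without WT replicate 1, 33 without WT replicate 3 and 16 to 30 without any 1 rescue or mutant sample. Of the 51, 14 were called in each of the 12 fits that left out 1 sample, and 6 with a block for collection day (*aex-5*, *irg-5*, *raga-1*, *ugt-26*, *C28A5.2* and *cars-2*).

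**Figure D4:**
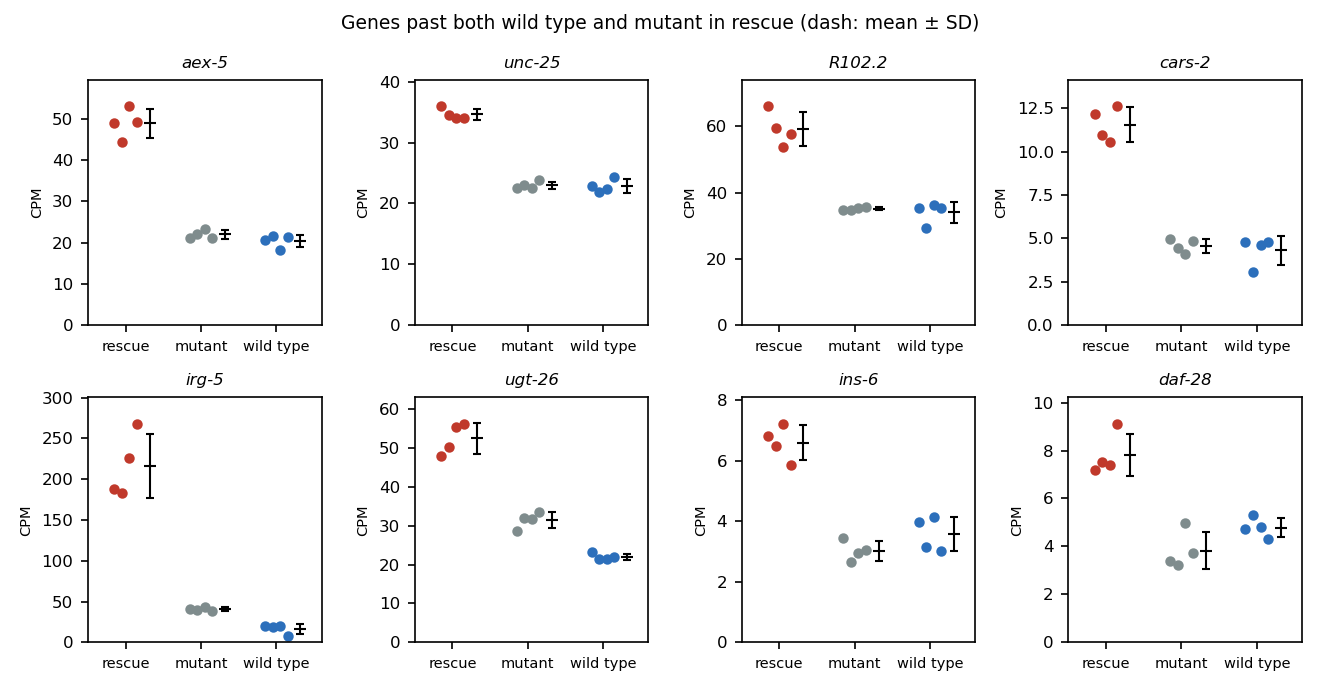
CPM (vertical axis) in each of the 4 rescue (red), mutant (grey) and wild type (blue) samples for 8 genes called in the same direction against both other groups, with the dash and bar giving mean and SD. Rescue samples lie above the other 8 samples in every panel, and the mutant overlaps wild type for *aex-5*, *unc-25*, *R102.2*, *cars-2*, *ins-6* and *daf-28*.

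Innate immune and detoxification genes held rises and falls, but in most families the falls were no more frequent than among all genes tested. Of 6 tested infection response (*irg*) genes 5 rose, with a median of 1.27. *irg-4* was at 52.7, 55.4, 47.5 and 55.3 CPM in rescue and 31.6 to 38.2 CPM in the mutant, against 21.5, 15.2, 14.6 and 13.4 CPM in WT, and *irg-5*, the *irg* gene with the largest change, was at 188, 183, 226 and 268 CPM in rescue and 38.3 to 43.8 CPM in the mutant, against 19.9, 18.6, 19.6 and 8.00 CPM in WT. Rescue samples were the highest of all 12 for both genes. The lysozyme gene *lys-2* was at 549, 614, 529.7 and 574 CPM in rescue, against 301, 184, 243 and 208 CPM in WT, the C-type lectin *clec-4* at 73.6, 82.0, 70.4 and 65.0 CPM in rescue, against 27.98, 13.5, 17.5 and 16.8 CPM in WT, and *dod-22*, a gene repressed by DAF-16 and used as an immune marker, at 131, 123, 130.4 and 129 CPM in rescue, against 32.7, 17.96, 26.8 and 19.7 CPM in WT. These 3 had log2 fold changes of 1.28, 1.95 and 2.41 in rescue, against the same WT samples, and 0.80 to 1.65 in the mutant. The saposin-like gene *spp-4* went the other way, at 31.9, 30.6, 31.5 and 28.2 CPM in rescue, against 55.2, 54.1, 62.3 and 58.5 CPM in WT. By family, 30 C-type lectins rose and 13 fell of 130 tested, and 10 lysozyme and saposin genes rose and 4 fell of 31. Among enzymes that modify foreign compounds, 14 UDP-glucuronosyltransferases rose and 6 fell of 60, 11 cytochromes P450 rose and 3 fell of 57, and 4 glutathione transferases rose and 7 fell of 40. Of all genes tested, 10.2% rose and 13.5% fell. The share that fell was below this in each of these families other than the glutathione transferases, whose share that rose was near that of all genes. *ugt-44* was at 161, 122.3, 158 and 178 CPM in rescue, against 50.8, 43.8, 43.98 and 45.9 CPM in WT, and its difference between rescue and mutant was -0.01 on the log2 scale. *gst-22*, which overlaps *F21H7.12*, rose by 1.86. With a block for collection day, 4 cytochromes P450 and 5 lysozyme and saposin genes and 3 *irg* genes rose, and 7 C-type lectins, 3 glutathione transferases and 1 of the cytochromes P450 fell. DESeq2 called 7 glutathione transferases higher. The count of *irg* genes was 3 without WT replicate 3, that of cytochromes P450 was 7 without rescue replicate 4 or WT replicate 4, and that of lysozyme and saposin genes was 5 or 6 without any 1 of 8 samples.

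Among large families of regulators, the share of genes called higher was above that of all genes tested (10.2%). Of 195 nuclear hormone receptor genes 45 rose and 3 fell (median 0.31), with *nhr-11* at 15.8, 13.9, 15.6 and 16.413 CPM in rescue, 14.3, 16.99, 14.7 and 15.5 CPM in the mutant and 4.42, 5.70, 4.03 and 5.56 CPM in WT. The *nhr-11* values of rescue and mutant overlapped, with a difference of 0.01 ± 0.11 on the log2 scale (standard error). Of 177 F-box genes, which encode substrate receptors of ubiquitin ligases, 45 rose and 9 fell, and of 65 BATH and MATH genes 15 rose and 1 fell. These families hold many genes of low level, and 384 F-box genes were listed for the 177 that could be tested. With a block for collection day, 23 nuclear receptors, 25 F-box and 9 BATH and MATH genes rose and 2 F-box genes fell, and the F-box count of rises was 29 without WT replicate 4.

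Lipid, one-carbon and lysosomal lists held genes that rose and genes that fell. Their medians were -0.07 for desaturases and elongases, -0.02 for fatty acid activation and oxidation, -0.24 for the methionine cycle and phosphocholine and 0.24 for lysosomal cathepsins and lipases. Among desaturases and elongases 5 of 16 rose and 2 fell, and *fat-2*, which makes linoleic acid, was at 846, 912, 757 and 827 CPM in rescue, against 565, 379, 456 and 363 CPM in WT (0.92, adjusted p = 0.00023). Of 61 fatty acid activation and oxidation genes 11 rose and 15 fell, with the largest fall in *acdh-1* and the largest rise in *ech-9*, both described above. The carnitine palmitoyltransferase gene *cpt-3* rose by nearly as much as *ech-9*. *cpt-3* was at 5.51, 6.20, 5.59 and 4.31 CPM in rescue, against 0.435, 0.535, 0.509 and 0.505 CPM in WT, with a log2 fold change of 3.42 in rescue and 3.78 in the mutant. *sbp-1*, the SREBP transcription factor of lipid synthesis, was at 42.8, 50.5, 43.4 and 42.2 CPM in rescue, against 24.1, 33.1, 29.9 and 31.9 CPM in WT (0.58, adjusted p = 0.000777), a call lost with a block for collection day (adjusted p = 0.0126), and its locus overlaps *idpc-1*. The S-adenosylmethionine synthetases *sams-3* and *sams-5* were lower: *sams-3* was at 87.8, 81.3, 82.2 and 81.1 CPM in rescue, against 138, 134, 132 and 143 CPM in WT, and *sams-5* at 19.7, 19.6, 19.5 and 18.7 CPM in rescue and 23.7 to 25.8 CPM in the mutant, against 33.8, 34.04, 35.7 and 35.9 CPM in WT. In *sams-5* the groups formed 3 separate steps, with rescue the lowest, and rescue was past the mutant as well (adjusted p = 0.00655). Copies of this enzyme are close in sequence, so estimated counts may be shared among them. In the lysosome, 8 of 31 cathepsin and lipase genes rose and 7 fell. The aspartyl protease *asp-10* was at 506, 452, 429.6 and 400.1 CPM in rescue, against 1799, 1387, 1554 and 1494 CPM in WT, and the cathepsin B-like *cpr-3* was at 64.3, 51.4, 66.1 and 82.8 CPM in rescue, against 21.1, 11.9, 11.97 and 13.6 CPM in WT. One fell by 1.80 and the other rose by 2.19 on the log2 scale, so members of the list changed in opposite directions. Without rescue replicate 2, 3 or 4 or WT replicate 4, or with a block for collection day, 4 cathepsin and lipase genes fell. None of 21 V-ATPase subunit genes was called in either direction by edgeR or DESeq2, and 2 had an unadjusted p under 0.05 and a higher level in rescue.

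A minority of the genes of autophagy and of the AMPK pathway, which is activated when energy is low, passed the test, all of them higher in rescue. Of 27 autophagy genes 7 rose and 0 fell, with a median of 0.29 in rescue and 0.25 in the mutant. *hlh-30*, the ortholog of TFEB that switches on autophagy and lysosome genes, was at 105, 98.8, 93.99 and 91.8 CPM in rescue and 88.8 to 92.4 CPM in the mutant, against 76.7, 69.0, 77.7 and 69.4 CPM in WT. *atg-16.2*, of the complex that conjugates LGG-1 to membranes, was at 17.5, 15.99, 18.2 and 18.2 CPM in rescue, against 12.03, 12.25, 12.5 and 12.1 CPM in WT. All rescue samples exceeded all WT samples for both, by a log2 fold change of 0.41 and 0.51. In the AMPK and CRTC list 3 of 13 rose and 0 fell. The catalytic subunit gene *aak-2* was at 70.5, 62.9, 60.4 and 62.3 CPM in rescue and 58.7 to 62.1 CPM in the mutant, against 59.1, 46.2, 54.04 and 47.9 CPM in WT (0.31, adjusted p = 0.00869), and the CREB gene *crh-1* was at 35.1, 28.2, 30.5 and 31.1 CPM in rescue, against 22.8, 26.02, 22.7 and 26.97 CPM in WT (0.34, adjusted p = 0.00778). These calls sat close to the threshold, and each was lost in 15 of 23 other settings, among them a block for collection day (adjusted p = 0.0659 and 0.0276). Of the 14 listed TORC1 components *raga-1* was the 1 gene called by edgeR, DESeq2 called 1 lower in addition, and the median of the list was 0.03. A block for collection day gave 3 rises in autophagy and 0 in the AMPK and CRTC list, without WT replicate 3 the count of autophagy genes was 4, and the AMPK and CRTC count was 0 to 2 without any 1 sample.

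Several lists of germ line genes were lower in rescue, with the largest share of falls among major sperm proteins. Major sperm proteins form the cytoskeleton that moves nematode sperm, and of 35 genes 32 fell, with a summed level of 3278, 2843, 3127 and 2934 CPM in rescue and 4040.4 to 5479.9 CPM in the mutant, against 5090.0, 6704, 7582 and 6621 CPM in WT. *msp-49* was at 62.1, 51.1, 52.4 and 55.4 CPM in rescue, against 126, 185, 192 and 165 CPM in WT, but copies of this family are nearly identical and their single values are uncertain. Of 48 other spermatogenesis genes 27 fell and 0 rose (median -0.51 in rescue and -0.33 in the mutant). The sperm phosphatase *gsp-3*, which has the near-identical copy *gsp-4*, was at 74.7, 75.8, 79.4 and 79.0 CPM in rescue and 95.7 to 108 CPM in the mutant, against 113, 109, 125 and 123 CPM in WT, and rescue was past the mutant as well (adjusted p = 0.00468). In the germ line proper, 14 of 22 P granule and Argonaute genes fell and 0 rose. The Vasa helicase *glh-1* was at 452, 445, 444 and 429 CPM in rescue, against 803, 701, 728 and 687 CPM in WT (-0.72, adjusted p = 5.75e-06), and the Argonaute *wago-1* at 399, 423, 400.1 and 386 CPM in rescue, against 548, 663, 567 and 603 CPM in WT (-0.57, adjusted p = 0.000112). Among meiosis genes 8 of 30 fell, while none of 16 oocyte and eggshell genes was called by edgeR or DESeq2 (0 had an unadjusted p under 0.05) and their median was 0.24. So sperm genes fell in most listed members, whereas no oocyte gene passed the test. With a block for collection day the falls numbered 30 major sperm protein, 11 other spermatogenesis, 8 P granule and Argonaute and 2 meiosis genes, and library size alone gave 15 other spermatogenesis, 8 P granule and Argonaute and 1 meiosis gene. Without rescue replicate 1, 3 or 4 or WT replicate 4, 9 P granule and Argonaute genes fell, and the meiosis count was between 2 and 5 without rescue replicate 1, 3 or 4 or WT replicate 2, 3 or 4. Histone genes went the other way, with 17 rises and 2 falls among 47 tested (median 1.36), as for the H4 gene *his-10* at 13.3, 10.1, 13.1 and 13.1 CPM in rescue, against 4.28, 1.83, 2.78 and 1.59 CPM in WT. Most histone transcripts lack the poly-A tail on which the libraries were selected, and copies share sequence, so single values are uncertain. The count of histone rises was 9 with a block for collection day and 6 in the samples of the shared days without a block.

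The stage-dependent genes of the cuticle and of yolk varied widely among WT samples, and most were not called. *dpy-7*, a cuticle collagen made in pulses before each molt, was at 58.4, 32.9, 20.02 and 41.2 CPM in rescue and 5.64 to 13.7 CPM in the mutant, against 70.8, 0.178, 14.05 and 1.63 CPM in WT (log2 fold change 0.85, adjusted p = 0.53, and 2.83 without WT replicate 1). *lin-42*, the Period ortholog that oscillates with the molts, was at 197, 154.4, 121.8 and 159 CPM in rescue, against 222, 40.9, 170.5 and 61.9 CPM in WT. In both genes WT replicates 1 and 3 were high and 2 and 4 low, whereas rescue samples lay within the WT range, and these genes were chosen after their values had been seen. The yolk protein gene *vit-2*, switched on at the end of L4, had the opposite order in WT, at 6302, 8802, 5776 and 4865 CPM in rescue, against 2518, 9507, 3331 and 8187 CPM in WT (adjusted p = 0.818), and 0 of 6 vitellogenin genes were called by edgeR or DESeq2 (0 with an unadjusted p under 0.05). Of 145 cuticle collagen genes 16 fell and 1 rose, both smaller shares than among all genes tested (13.5% and 10.2%). *col-154* was at 498, 309, 315 and 325 CPM in rescue, against 784, 561, 999 and 720.2 CPM in WT, and *col-90*, which overlaps *let-754*, was at 93.9, 61.9, 69.4 and 75.5 CPM in rescue, against 152, 134, 212 and 169 CPM in WT. For both the highest rescue sample, replicate 1, stayed below the lowest WT sample. The number of collagens that fell was 24 without rescue replicate 1, 6, 5 and 5 without rescue replicates 2, 3 and 4, and 7 and 10 without WT replicates 3 and 4, while 9 rose without WT replicate 1. Of 23 molting and timing genes 1 rose and 1 fell, with a median of 0.23 in rescue and -0.21 in the mutant, and 5 rose without WT replicate 1.

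The called genes were spread unevenly over the chromosomes. On chromosome X, 309 of 2193 genes tested rose (14.1%) and 44 fell (2.01%), and the median log2 fold change was 0.20. On the autosomes the share that fell ran from 9.75% on chromosome V to 18.3% on chromosome I, and the share that rose from 6.37% on chromosome I to 13.1% on chromosome V. The low share of falls on X held at all levels of expression: over 5 bins of mean CPM it was 0.573 to 3.88% on X, against 2.39 to 25.4% on the autosomes, and X had the smaller share in each bin. Germ line markers were lower in rescue at the same time (5 of 10 called), and their part in the shares on X was not tested.

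**Figure D5:**
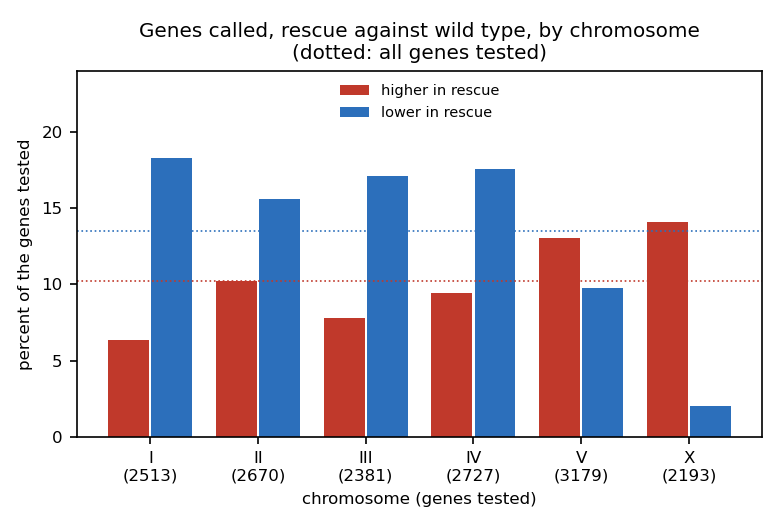
Percent of the genes tested on each chromosome (horizontal axis, with the number tested) that were called higher (red) or lower (blue) in rescue against wild type, with dotted lines at the shares over all genes (10.2% and 13.5%). Among the 6 chromosomes drawn, X has the smallest share of lower genes, at 2.01%, and the largest share of higher genes, at 14.1%.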

How the data were processed

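RNA of rescue, mutant and WT L4 larvae was selected for poly-A and sequenced as stranded libraries by the study. The authors used the bcbio-nextgen pipeline, in which STAR alignments to Ensembl release 94 (WBcel235) served quality control and Salmon estimates per transcript were summed to genes by tximport. The versions and the strand setting of Salmon are not given in the sources used here. The deposited values are expected counts (estimated counts per gene, not normalized between samples). A second deposited table, of the counts divided by DESeq2 size factors, was not used here.

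Expected counts were rounded to whole numbers and read by sample label, with 0 columns left without a sample. edgeR 4.0.16 (R 4.3.3) fitted all 12 samples with a mean per group after filterByExpr at its defaults (15728 of 21882 genes) and TMM (factors 0.951 to 1.08), with a common dispersion of 0.0299. Genes were called by glmQLFTest at a Benjamini-Hochberg adjusted p under 0.01, the false discovery rate of the study. CPM are on TMM-scaled libraries. Gene lists were described by counts and medians, with no set test. Coordinates and overlaps are from Ensembl release 115, in which 21714 genes were found. A floor of 3 counts was used for genes at 0, which covers counting error only.

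Genes were named by a rule: *raga-1*, the 15 largest rises and falls with a mean of at least 5 CPM and non-overlapping groups, up to 12 genes past both groups or between them, up to 4 called members per list, and genes the study measured singly. Exceptions are stated. The genes, lists and comparisons were chosen with earlier results of these data known. Alternatives were DESeq2 1.42.0, other filters, scalings, thresholds and samples, each sample left out, and the replicate number or collection day as a block. On data simulated for rescue against WT over 15728 genes, edgeR recovered 17% of 200 genes changed 1.5-fold and 75% of 200 changed 2-fold, with 0% and 1.96% false calls, and DESeq2 recovered 49% and 83.5%, with 10.1% and 8.74% false. The simulated samples had a common mean per gene apart from those 200, with no difference in the mutant and none by collection day. These rates therefore need not hold for the data.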

Additional observations from a re-analysis of the deposited data

Results flagged for a closer look

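A single sample stood apart from the other 3 of its group in 13 of 186 sets of 4 values (6.99%), where chance gives about 1 in 20. In genes that rose, rescue replicate 1 was high for *egl-3* (148.4 CPM, the others 141.8 to 142.6), rescue replicate 2 was high for *sbp-1* (50.5 CPM, the others 42.2 to 43.4) and low for *his-10* (10.1 CPM, the others 13.1 to 13.3). In genes that fell, rescue replicate 1 was high for *sams-3* (87.8 CPM, the others 81.1 to 82.2) and for *col-154* (498 CPM, the others 309 to 325).

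Among WT samples, replicate 4 was low for *irg-5* (8.00 CPM, the others 18.6 to 19.9) and high for *acdh-1* (78.5 CPM, the others 12.8 to 19.7). WT replicate 2 was low for *R102.2* (29.4 CPM, the others 35.3 to 36.2) and *cars-2* (3.07 CPM, the others 4.62 to 4.78) and high for *daf-5* (43.97 CPM, the others 33.1 to 34.9). WT replicate 1, the shallowest library, was high for *gsto-1* (87.8 CPM, the others 63.1 to 66.2). The same replicate was low for the summed spermatogenesis genes other than major sperm proteins (2371 CPM, the others 3265 to 3345) and high for the summed neuropeptide-like protein genes (434 CPM, the others 409.9 to 412). In each of these genes and sums the rescue and WT samples remained separate.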

How the results depend on the processing

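The counts of genes depended on the setting. They are given here in the order higher and lower in rescue than in WT, higher and lower in rescue than in the mutant, past both groups, and between them. With no change these were 1602, 2119, 48, 12, 51 and 1. The collection day as a block gave 768, 1094, 6, 1, 7 and 0. With only the 9 samples of days 2, 4 and 6 the counts were 693, 1097, 4, 1, 5 and 0, an alternative chosen after seeing the data. A further setting fitted 2 groups at a time, on the days that both shared and with the day as a block. It gave 0, 0, 135, 83, 0 and 0, and its rescue and mutant fit held every sample of those 2 groups. Against WT, 2246 and 2634 genes in that setting had an unadjusted p under 0.05. Only the 2 groups in the fit gave 1026, 1478, 439, 117, 161 and 4. Library size alone gave 2142, 1146, 86, 8, 82 and 2, and DESeq2 1865, 2672, 188, 136, 254 and 7. An adjusted p under 0.05 gave 2873, 3222, 197, 67, 221 and 8, and an absolute log2 fold change of at least 1 gave 444, 153, 25, 5, 22 and 0. Filters of 10 counts or none beyond 1 count, and upper quartile scaling, kept every count within 1.5 times. Leaving out 1 sample gave 1146 to 1852, 1539 to 2167, 14 to 104, 5 to 44, 16 to 126 and 0 to 1, the highest rescue-against-mutant counts without WT replicate 1. The cause of these differences was not tested.

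The replicate numbers do not pair the samples: deviations of same-numbered rescue and WT samples correlated at 0.33, 0.21, -0.16 and -0.15, and the numbers were used as a block only for this check, which gave 1370, 1864, 27, 7, 27 and 2. Of 1905 values of named genes under the alternatives, 1778 kept direction and call, 124 lost the call (80 of them with the shared days and a block) and 3 changed direction, all for *vit-2*, which was not called: its log2 fold change was -0.12 to 0.45 over the fits without 1 sample (-0.06 without rescue replicate 2, -0.12 without WT replicate 1 and -0.07 without WT replicate 3). Of 920 medians of the 40 lists with a median of at least 0.2 in size, 0 changed sign, whereas 37 of 1426 medians over all lists did. Among these, the median of desaturases and elongases was 0.20 without WT replicate 1 and 0.03 with library size alone, and that of TORC1 components was -0.01 without WT replicate 3. Values near the floor, 0.0903 to 0.122 CPM in rescue libraries, are the least precise.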
